A study of Mus musculus with 8 samples.

Results

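The enzymes described here are the 10 gene products of serine synthesis and of the folate cycle that carries the carbon unit taken from serine: Phgdh, Psat1, Psph, Shmt1, Shmt2, Mthfd1, Mthfd1l, Mthfd2, Mthfd2l and Aldh1l2. They were chosen by gene symbol, and all 10 were found among the 53242 genes of both the read count and the TPM tables, the latter holding transcript levels scaled to gene length and library size. RNA was sequenced from splenic B cells of C57BL/6 mice aged 8 to 12 weeks that had been activated for 24 h on a feeder layer of CD40LB cells, which present CD40 ligand, with 40 ng/ml IL4 in the medium. The feeder cells were removed with antibody and magnetic beads before lysis. The 4 control mice were Eif4a1+/+ CD23-cre and the 4 knockout mice (4A1 KO) were Eif4a1fl/fl CD23-cre, so the Cre transgene was present in both genotypes. The CD23 promoter drives the Cre in the B cell lineage from the splenic immature stage onward, and Eif4a1 in other cells of the spleen is not its target. Each genotype had a male (replicate 1) and a female (replicate 2) in batch A, and a male (replicate 3) and a female (replicate 4) in batch B. Replicate 1 of both genotypes, which the submitters excluded for low viability, was left out of the main comparison of 3 against 3 libraries and is shown beside it.

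Serine is made from a glycolytic intermediate by PHGDH, PSAT1 and PSPH in that order. SHMT1 in the cytosol and SHMT2 in mitochondria split serine into glycine and a carbon unit bound to tetrahydrofolate. In mitochondria MTHFD2 or MTHFD2L and then MTHFD1L turn that unit into formate, which leaves for the cytosol, where MTHFD1 binds it to folate again for purine and thymidylate synthesis. ALDH1L2 instead oxidises the mitochondrial unit to carbon dioxide and makes NADPH. Activated lymphocytes are known to raise several of these enzymes as they grow and prepare to divide, and the factors ATF4 and MYC are known to drive several of the genes.

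Between 38488341 and 43210858 reads were counted in each of the 6 libraries of the main comparison, and 31727557 in 4A1 KO replicate 1, the smallest of the 8. Eif4a1 itself was at 747 to 936 CPM (counts scaled to the total counted in the library) in the controls and at 557 to 691 CPM in the 4A1 KO libraries, without overlap in the 8 libraries, and its log2 fold change was -0.44 ± 0.05 (SE, adjusted p = 1.15e-04, edgeR). The count covers the whole gene, including the part outside the floxed exons. B cell markers summed to 6848 to 7590 CPM in the controls and 7166 to 7370 CPM in 4A1 KO (replicates 2 to 4), with all 8 of 8 genes detected and the largest part of the sum from Fcer2a. By gene, 3 of the 8 were called lower in 4A1 KO (13.7% of all genes tested), namely Cd79a at -0.67, Cd79b at -0.89 and Cd22 at -0.76 on the log2 scale. At an adjusted p below 0.05 alone (edgeR), 5 of 8 were lower (26.7% of all genes tested) and 1 was higher (26.3%). The 18 fibroblast genes that the feeder cells could contribute summed to 12.5 to 59.4 CPM in the controls and 20.3 to 24.5 CPM in 4A1 KO. The upper end of the control range was replicate 2, where Col1a1 was at 27.4 CPM, against 5.23 and 6.02 CPM in control replicates 3 and 4. Lum, Mmp2 and Postn were at 0 in every library. T cell markers (7 genes, Cd3g at 0) summed to 0.456 to 1.11 CPM against 0.398 to 0.779 CPM. Myeloid markers (7 genes, S100a8 and S100a9 at 0) summed to 4.12 to 6.33 CPM in the controls and to 7.48 to 8.99 CPM in 4A1 KO (replicates 2 to 4), but to 8.17 CPM in control replicate 1 and 7.28 CPM in 4A1 KO replicate 1, so that the genotypes overlapped in all 8 libraries. Plasma cell markers (4 genes) summed to 31.7 to 37.0 CPM in the controls and 16.2 to 37.7 CPM in 4A1 KO. By gene, 2 of the 3 tested were called lower (13.7% of all genes tested), Sdc1 at -1.22 (adjusted p = 8.47e-05, edgeR) and Prdm1 at -0.64 (adjusted p = 0.00114). Of the 3 myeloid genes tested, 1 was called higher (11.6% of all genes tested), Adgre1 at 0.62 (adjusted p = 0.00687, edgeR). The part of the B cell, myeloid and plasma cell markers in the results below was not tested. In bulk RNA, fewer cells of a type and less RNA per cell cannot be told apart.

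The stretches of DNA that lie before the starts of 4 of the genes are printed first, because these 4 (Mthfd2, Shmt2, Mthfd1 and Aldh1l2) were the members whose mRNA differed between the genotypes at an adjusted p below 0.05. Each run is the 150 bases before the start of the Ensembl canonical transcript in GRCm39, read 5′ to 3′ along the strand of the gene. Capitals mark letters that match a motif searched for, either a CCAAT box (CCAAT, or ATTGG where it lies on the other strand) or an E-box (CACGTG).
Mthfd2 (chr6:83294605-83294754, minus strand): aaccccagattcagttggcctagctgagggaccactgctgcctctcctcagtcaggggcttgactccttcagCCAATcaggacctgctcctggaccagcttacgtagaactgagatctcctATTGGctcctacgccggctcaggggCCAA
Shmt2 (chr10:127358322-127358471, minus strand): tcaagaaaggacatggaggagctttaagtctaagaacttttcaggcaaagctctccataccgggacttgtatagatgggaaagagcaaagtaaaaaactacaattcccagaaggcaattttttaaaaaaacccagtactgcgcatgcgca
Mthfd1 (chr12:76301834-76301983, plus strand): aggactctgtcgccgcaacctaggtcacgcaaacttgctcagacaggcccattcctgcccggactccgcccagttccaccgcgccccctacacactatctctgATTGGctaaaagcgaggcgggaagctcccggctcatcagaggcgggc
Aldh1l2 (chr10:83370006-83370155, minus strand): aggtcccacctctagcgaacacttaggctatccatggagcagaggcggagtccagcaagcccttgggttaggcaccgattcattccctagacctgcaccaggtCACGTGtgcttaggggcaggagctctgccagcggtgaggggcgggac

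Counted from the start site, Mthfd2 had CCAAT boxes at -78 to -74, at -29 to -25 and across the start at -4 to 1, of which the first 4 letters are printed. Mthfd1 had 1 at -47 to -43, and Aldh1l2 had an E-box at -47 to -42. In windows from 250 bases before to 50 bases after the start, 5 of the 10 genes (Phgdh, Psat1, Shmt1, Mthfd1 and Mthfd2) held CCAAT, against 39.9% of 21757 protein-coding promoters; this motif was added after the windows had been read. TGATGNAA, which ATF4 binds together with C/EBP proteins, was in 0 of the 10 windows and in 3.84% of all promoters. CACGTG was in 1 of 10 (7.82% of all) and TTTNNCGC, a motif of E2F factors, in 2 of 10 (6.30% of all), namely Psph and Shmt2. All motifs were searched on both strands, and matches describe the letters of these windows and no more.

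The enzymes lay far apart in level per transcript length, given in TPM. In control cells (mean ± SD, n = 3) Shmt2 was highest at 783 ± 75.6 TPM and Phgdh next at 420 ± 22.3 TPM, followed by Mthfd1 at 248 ± 15.2, Psat1 at 232 ± 17.0, Mthfd2 at 187 ± 17.4, Shmt1 at 138 ± 14.2 and Mthfd1l at 133 ± 8.25 TPM. Psph was at 32.6 ± 2.03 TPM. Mthfd2l, at 1.55 ± 0.43 TPM, and Aldh1l2, at 0.334 ± 0.144 TPM, were lowest, and they rested on 56 to 62 and on 29 to 42 counts per library. The libraries of Mthfd1 and Psat1 overlapped, as did those of Shmt1 and Mthfd1l, and no other neighbours in that order did. In 4A1 KO cells the order of Mthfd1, Psat1 and Mthfd2 was turned round, with Mthfd2 at 247 ± 33.2, Psat1 at 246 ± 34.4 and Mthfd1 at 210 ± 15.5 TPM and overlap between each pair of neighbours, and the other enzymes kept their places. The 10 genes together took 0.205 to 0.227% of all TPM in control replicates 2 to 4 and 0.211 to 0.241% in 4A1 KO.

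**Figure D1:**
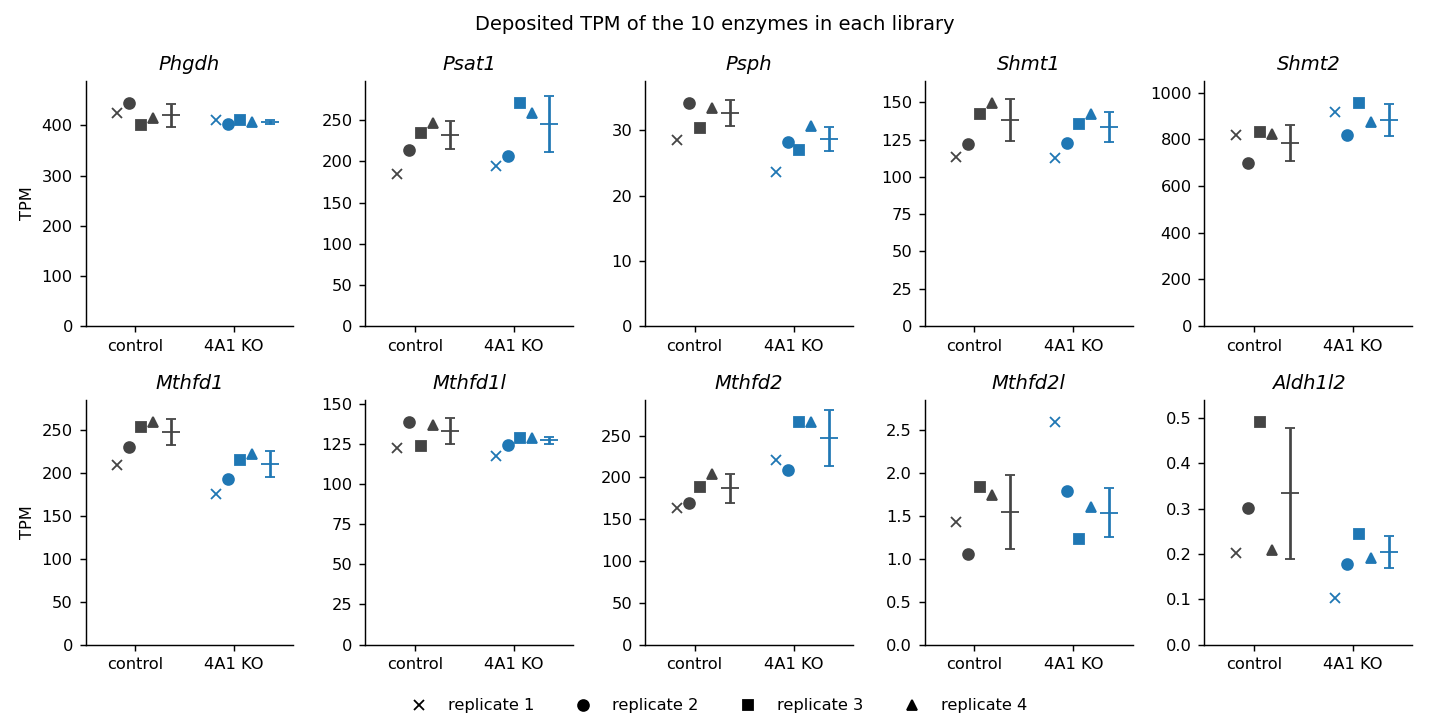
Deposited TPM of each enzyme in the 8 libraries, with control libraries in grey and 4A1 KO libraries in blue; symbols give the replicate number, and the bar at the right of each group is the mean ± SD of replicates 2 to 4. The axes start at 0 and differ between panels. Mthfd2 is the only panel in which no control library (164 to 204 TPM) reached the 4A1 KO libraries (209 to 267 TPM).

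Of the 10 enzymes, 1 (Aldh1l2) was called at an adjusted p below 0.05 and an absolute log2 fold change above 0.5, against 25.3% of the 14218 genes tested. With the adjusted p alone, 2 were higher in 4A1 KO (Mthfd2 and Shmt2; 26.3% of all genes tested) and 2 were lower (Mthfd1 and Aldh1l2; 26.7%). The median log2 fold change of the 10 was -0.05, and that of all genes tested was 0.01. On log2(TPM + 1), limma gave an adjusted p below 0.05 for 4 of the 9 enzymes with a mean of at least 1 TPM, against 50.7% of all genes tested, and these were Mthfd2, Mthfd1, Shmt2 and Psph. The CPM of the genotypes did not overlap in the 6 libraries for 4 of 10 enzymes (Psph, Mthfd1, Mthfd2 and Aldh1l2; 51.0% of genes tested), and in all 8 libraries for 2 of 10 (Mthfd2 and Aldh1l2; 36.9%). In each of these counts the share of the enzymes was below the share of all genes tested, a difference for which no test was made. With no filter on low values it was not, at 4 of 10 enzymes against 34.7% of all genes on counts and 2 of 10 against 17.6% on TPM, by the adjusted p.

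**Figure D2:**
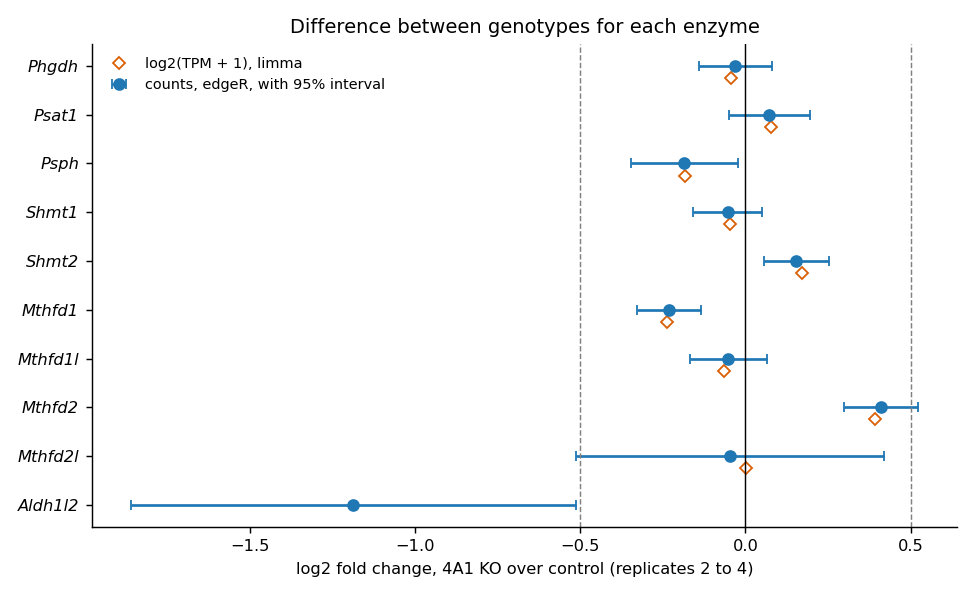
Log2 fold change (4A1 KO over control, replicates 2 to 4) of each enzyme from the read counts (filled circles, with the 95% interval of edgeR's fit) and from log2(TPM + 1) (open diamonds, limma); dashed lines mark ±0.5. Mthfd2 lies at 0.41 and Mthfd1 at -0.23 with intervals that leave out 0, and Aldh1l2, not plotted for TPM, lies at -1.19 with the widest interval.

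The 3 enzymes of serine synthesis differed little between the genotypes. Phgdh (chr3:98220484-98255047), which catalyses the first step, was at 425, 444, 400 and 416 TPM in control replicates 1 to 4 and at 410, 402, 411 and 408 TPM in 4A1 KO. The groups overlapped, and the log2 fold change was -0.03 ± 0.05 (SE, adjusted p = 0.628, edgeR) with a 95% interval of 0.907 to 1.06-fold. Psat1 (chr19:15882039-15924701), the aminotransferase of the second step, was at 185, 213, 234 and 247 TPM in the controls and at 194, 206, 271 and 259 TPM in 4A1 KO. Both genotypes were lower in batch A than in batch B, and the log2 fold change between genotypes was 0.07 ± 0.05 (adjusted p = 0.291, edgeR; interval 0.966 to 1.15-fold). Psph (chr5:129841925-129864513), the phosphatase that releases serine, was at 28.5, 34.1, 30.3 and 33.4 TPM in the controls and at 23.6, 28.2, 27.0 and 30.6 TPM in 4A1 KO. The difference within same-numbered pairs was negative in 4 of 4, from -17.4 to -8.44%, with a log2 fold change of -0.18 ± 0.07. That difference missed the threshold on counts (adjusted p = 0.0554, edgeR), lay just inside it on TPM (adjusted p = 0.0488, limma) and passed with all 8 libraries (adjusted p = 0.0156, edgeR). It was not past the threshold on TPM without replicate 2, 3 or 4 (adjusted p = 0.213, 0.136 and 0.0691, limma).

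All 3 genes share sequence with other loci. Phgdh has 20 copies in the count table with over 90% identity to its transcript, mostly processed pseudogenes. They held 1087 to 1556 counts per library, 8.22 to 9.17% of the Phgdh count, and Gm7901, which is 98.7% identical, held at least 85.3% of them. The mean log2 difference of CPM over pairs 2 to 4 was -0.035 with the copies added, a choice made after seeing the data, and -0.035 without them. Psph shares 465 bases of its exons with Cct6a on the opposite strand, a gene at 37092 to 44168 counts in the 6 libraries against 954 to 1223 for Psph. The log2 fold change of Cct6a was 0.10 (adjusted p = 0.0701, edgeR), and the part of Cct6a in the Psph counts was not tested. On the same strand, the span of the long non-coding RNA Gm71476, introns included, covers 1625 bases of the Psph exons in GENCODE M39. Gm71476 was not among the copies found for the Psph transcript, and its part in the Psph counts was not tested. Psat1 has a processed pseudogene, Gm12611, that is 90.7% identical over 1059 bases and held at most 1 count per library.

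Of the serine hydroxymethyltransferases, the mitochondrial Shmt2 was higher in 4A1 KO. Shmt2 (chr10:127352266-127358323) was at 818, 696, 833 and 821 TPM in control replicates 1 to 4 and at 917, 816, 954 and 876 TPM in 4A1 KO. The groups overlapped, since control replicates 1, 3 and 4 lay above 4A1 KO replicate 2, but every 4A1 KO library was higher than the control of the same number, by 6.69 to 17.2%. The log2 fold change was 0.15 ± 0.04 (SE, adjusted p = 0.0156, edgeR), which is 1.11-fold with an interval of 1.04 to 1.19. The adjusted p was 0.0967 without replicate 2, 0.0525 without replicate 3 and 0.154 with no replicate block (edgeR). The cytosolic Shmt1 (chr11:60661185-60708167) was at 114, 122, 142 and 149 TPM in the controls and at 113, 123, 136 and 142 TPM in 4A1 KO. Its groups overlapped throughout, and the log2 fold change was -0.05 ± 0.05 (adjusted p = 0.362, edgeR; interval 0.896 to 1.04-fold). The span of Smcr8 on the opposite strand, introns included, covers 1681 bases of the Shmt1 exons, and the longest match between their transcripts was 184 bases. The log2 fold change of Smcr8 was 0.08 (adjusted p = 0.420, edgeR). A stretch of 203 bases of the Psat1 transcript was 93.1% identical to an annotated Shmt1 transcript, a match not found from the canonical Shmt1 transcript.

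Mthfd1 and Mthfd2, which work on the same folate forms in the cytosol and in mitochondria, moved in opposite directions. Mthfd1 (chr12:76301984-76366588), the trifunctional cytosolic enzyme, was at 209, 231, 253 and 260 TPM in the controls and at 175, 193, 215 and 223 TPM in 4A1 KO. Replicates 2 to 4 did not overlap, while control replicate 1 lay below 4A1 KO replicates 3 and 4, and each 4A1 KO library was below the control of its own number, with differences of -16.3 to -14.2%. The log2 fold change was -0.23 ± 0.04 (SE, adjusted p = 0.00191, edgeR), which is 0.852-fold (0.796 to 0.912). Mthfd2 (chr6:83282673-83302890), the mitochondrial dehydrogenase and cyclohydrolase, was at 164, 169, 188 and 204 TPM in the controls and at 221, 209, 266 and 267 TPM in 4A1 KO. All 4 4A1 KO libraries lay above all 4 controls, and the increase within pairs was 23.3 to 41.3%. The log2 fold change was 0.41 ± 0.05 (adjusted p = 1.71e-04, edgeR), which is 1.33-fold (1.23 to 1.44) and below the threshold of 0.5 for a call. On TPM the differences were -0.24 ± 0.04 for Mthfd1 (adjusted p = 0.00529, limma) and 0.39 ± 0.05 for Mthfd2 (adjusted p = 0.00216, limma). Both kept their direction and an adjusted p below 0.05 in each of the 11 alternative fits of the counts and the 7 of the TPM.

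The other mitochondrial enzymes were unequal in level. Mthfd1l (chr10:3922870-4117081), the formate-releasing ligase, was at 123, 139, 124 and 137 TPM in the controls and at 118, 125, 129 and 129 TPM in 4A1 KO, with overlapping groups and a log2 fold change of -0.05 ± 0.05 (adjusted p = 0.423, edgeR; interval 0.890 to 1.05-fold). Mthfd2l (chr5:91078920-91169231), the minor paralogue of Mthfd2, had 48, 56, 61 and 62 counts in the controls and 60, 45, 72 and 53 in 4A1 KO. At this depth its interval was wide (0.700 to 1.34-fold, log2 fold change -0.05 ± 0.21, adjusted p = 0.863, edgeR), and its sign changed with the libraries used. Aldh1l2 (chr10:83323314-83370005) had 29, 35, 42 and 29 counts in the controls and 10, 11, 17 and 17 counts in 4A1 KO, so that the groups did not overlap in counts. The log2 fold change was -1.19 ± 0.30 (adjusted p = 0.00876, edgeR), or 0.439-fold with an interval of 0.275 to 0.700. DESeq2 gave -1.20 with an adjusted p of 0.0828, which misses the threshold, so the call was made with edgeR and not with DESeq2. Leaving out 1 replicate gave adjusted p-values of 0.00737 to 0.0491 (edgeR). In TPM Aldh1l2 was at 0.202 to 0.492 in the controls and at 0.103 to 0.244 in 4A1 KO, with overlap.

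Aldh1l2 shares 1056 bases of its exons with Nopchap1 on the opposite strand. Nopchap1 had 5109 to 5289 counts in control replicates 2 to 4 and 3512 to 4257 in 4A1 KO, a log2 fold change of -0.42 (adjusted p = 3.58e-04, edgeR). The counts were made with strand taken into account, and the part of Nopchap1 in the Aldh1l2 counts was not tested. Of the 18 fibroblast genes 9 were tested, and 2 were called lower in 4A1 KO as Aldh1l2 was (13.7% of all genes tested). They were Serpinf1 at -1.79 (adjusted p = 0.00380, edgeR) and Col3a1 at -1.57 (adjusted p = 0.0437), while 1 was called higher (11.6%), Fn1 at 0.86 (adjusted p = 0.0215). The part of feeder RNA in the Aldh1l2 counts was not tested.

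The ratio of paired enzymes was then taken within each library, on TPM. Shmt2 exceeded Shmt1 by 7.19, 5.70, 5.85 and 5.49-fold in control replicates 1 to 4 and by 8.15, 6.66, 7.03 and 6.17-fold in 4A1 KO. The log2 ratio was higher by 0.21 in 4A1 KO, and in 4 of 4 pairs, but the groups overlapped and the exact permutation test over 8 libraries gave p = 0.143 (adjusted 0.214 over 3 ratios, two-sided). The ratio of Mthfd1l to Mthfd1, the mitochondrial enzyme that releases formate and the cytosolic enzyme that takes it up, was 0.489 to 0.602 in the controls and 0.577 to 0.672 in 4A1 KO. It was also higher in 4 of 4 pairs, with a log2 difference of 0.18 (exact permutation p = 0.143, adjusted 0.214). Mthfd2 exceeded Mthfd2l 102 to 160-fold in the controls and 85.1 to 216-fold in 4A1 KO, higher in 2 of 4 pairs (log2 difference 0.18, exact permutation p = 0.571, adjusted 0.571). The smallest p that 4 against 4 libraries allow is 0.0286, and pairing by replicate number cannot go below 0.125.

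The ratio of Mthfd2 to Mthfd1 was chosen after both had been seen to differ and is given without a test. It was 0.784, 0.733, 0.743 and 0.785 in control replicates 1 to 4 and 1.26, 1.08, 1.23 and 1.20 in 4A1 KO. Mthfd1 thus exceeded Mthfd2 in every control library and Mthfd2 exceeded Mthfd1 in every 4A1 KO library, a log2 difference of 0.65.

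**Figure D3:**
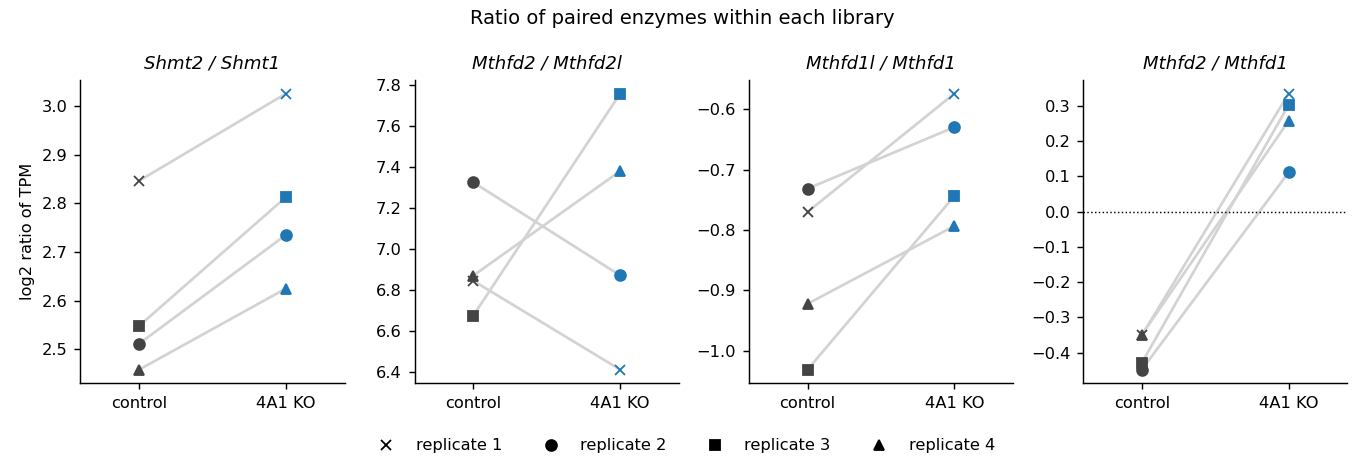
Log2 ratio of TPM of paired enzymes within each library, control in grey and 4A1 KO in blue, with lines joining libraries of the same replicate number; the vertical axes differ between panels and do not start at 0. In the right panel the ratio of Mthfd2 to Mthfd1 lies below the dotted line of equal TPM in the 4 controls and above it in the 4 4A1 KO libraries.

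Sex and batch could be set against genotype because the labels give both. A genotype by batch or genotype by sex term, tested with edgeR in all 8 libraries, passed an adjusted p of 0.05 for 0 of the 10 enzymes. Among all 14211 genes tested it passed for 0.00704% (batch) and 0% (sex), so the count is particular to no enzyme. Of the 10 enzymes 0 had an unadjusted p below 0.05 (edgeR, smallest 0.0626, Mthfd2l by sex). The fit with DESeq2 size factors also gave 0 of 10, with a smallest unadjusted p of 0.0578. The batch term itself was examined after the values had been seen. Psat1 was higher in batch B than in batch A by 0.28 on the log2 scale (adjusted p = 0.00386, edgeR), Shmt1 by 0.22 (adjusted p = 0.00426), Mthfd2 by 0.21 (adjusted p = 0.00747) and Mthfd1 by 0.17 (adjusted p = 0.00956). Each of these 4 was higher in batch B in 4 of 4 comparisons within sex and genotype. They are 4 of 10 enzymes, against 28.2% of all genes tested. For Psat1 and Shmt1 the difference between batches was larger than that between genotypes, which was 0.07 and -0.05. Phgdh lay the other way at -0.11 (adjusted p = 0.0703, edgeR), lower in batch B in 4 of 4 comparisons. With the sex term, also examined after the values had been seen, Shmt2 was higher in males by 0.16 (adjusted p = 0.0352, edgeR), 1 of 10 enzymes against 6.88% of all genes. The males of this fit include replicate 1 of both genotypes, and the females include control replicate 2, the lowest control for Shmt2 at 696 TPM. Within batches, Mthfd2 was higher in 4A1 KO by 34.8 and 23.3% in the 2 pairs of batch A and by 41.3 and 30.7% in those of batch B, on TPM. The differences of Mthfd1 were -16.2 and -16.3% in batch A and -14.9 and -14.2% in batch B.

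**Figure D4:**
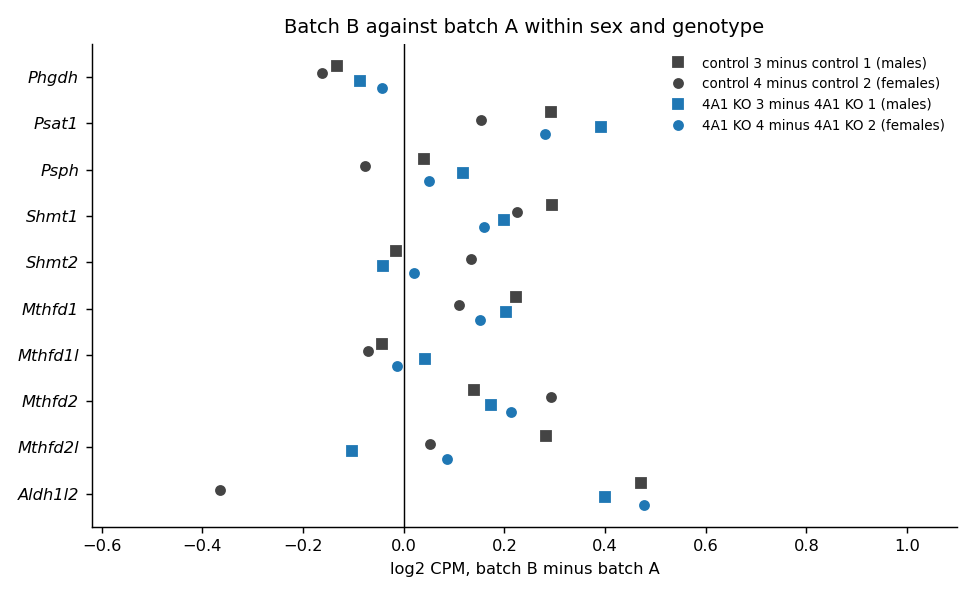
Difference in log2 CPM between batch B and batch A for each enzyme, within males (squares) and females (circles) and within control (grey) and 4A1 KO (blue). All 4 points lie above 0 for Psat1, Shmt1, Mthfd1 and Mthfd2 and below 0 for Phgdh.

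The other genes of the pathway were compared in the same fit. Of 36 further genes of the pathway that were tested (46 listed), 2 were called higher in 4A1 KO (11.6% of all genes tested) and 8 lower (13.7%), with a median log2 fold change of -0.15, so that 10 of 36 were called against 25.3% of all genes tested. The members of each group with the smallest adjusted p are named, together with genes behind a count of 5 or fewer, which were chosen after their values were seen. Among the folate-dependent steps of nucleotide synthesis, Tyms, which makes thymidylate, fell by 2.08 on the log2 scale (adjusted p = 5.79e-05, edgeR), and 1 of 3 was called. The purine enzymes Atic and Gart were lower by smaller amounts, at -0.28 (adjusted p = 0.00101, edgeR) and -0.19 (adjusted p = 0.0119). Of 4 tested folate-interconverting enzymes outside the 10, Mthfs alone was called, with -0.54 (adjusted p = 0.00354, edgeR).

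The groups for serine, glycine and homocysteine were read against the same share of 25.3% called among all genes tested. Both enzymes of transsulfuration, which joins serine to homocysteine on the way to cysteine, were called lower, Cth at -1.79 (adjusted p = 1.86e-04, edgeR) and Cbs, with no more than 76 counts, at -1.24 (adjusted p = 0.00310). In the methionine cycle, where methylfolate is used, 6 of 8 tested genes were higher at an adjusted p below 0.05 (edgeR; 26.3% of all genes tested) and 1 was lower (26.7%), with a median log2 fold change of 0.26. With the fold threshold 2 of 8 were called, against 25.3% of all genes. These were Ahcy, which went against most of its list at -0.60 (adjusted p = 3.04e-05, edgeR), and Gnmt at 0.98 (adjusted p = 0.00751), which had at most 86 counts. Among 9 tested genes for serine transport, the plasma membrane carrier Slc1a4 rose by 1.31 (adjusted p = 1.45e-05, edgeR), and the sideroflexins Sfxn3 and Sfxn5 were called lower, at -0.57 (adjusted p = 0.00485) and -0.58 (adjusted p = 0.0126). Of 7 genes for other uses of serine and glycine, 1 was called, a share below that of all genes tested. It was Gcat, which acts in the breakdown of threonine to glycine, at -1.73 (adjusted p = 2.62e-05, edgeR). Of 3 tested genes of the glycine cleavage system none was called. Gcsh was lower at -0.47 (adjusted p = 1.34e-04, edgeR), below the fold threshold. Amt, with at most 25 counts, was at -0.67 but missed the adjusted p (0.136, edgeR).

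The transcription factor Atf4 was higher by 0.46 (adjusted p = 1.63e-04, edgeR), below the fold threshold, and Myc was at -0.01 (adjusted p = 0.939). Of 20 tested genes from a list of other ATF4 targets, written from general knowledge, 10 were called higher (11.6% of all genes tested) and 2 lower (13.7% of all), with a median log2 fold change of 0.49 against 0.01 over all genes. Pycr1, a proline synthesis enzyme, had the smallest adjusted p with a log2 fold change of 1.01 (adjusted p = 1.48e-05, edgeR). Chac1 and Ddit4, which degrade glutathione and restrain mTORC1, were the 2 called lower, at -1.07 (adjusted p = 2.87e-04, edgeR) and -0.78 (adjusted p = 9.63e-04).

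**Figure D5:**
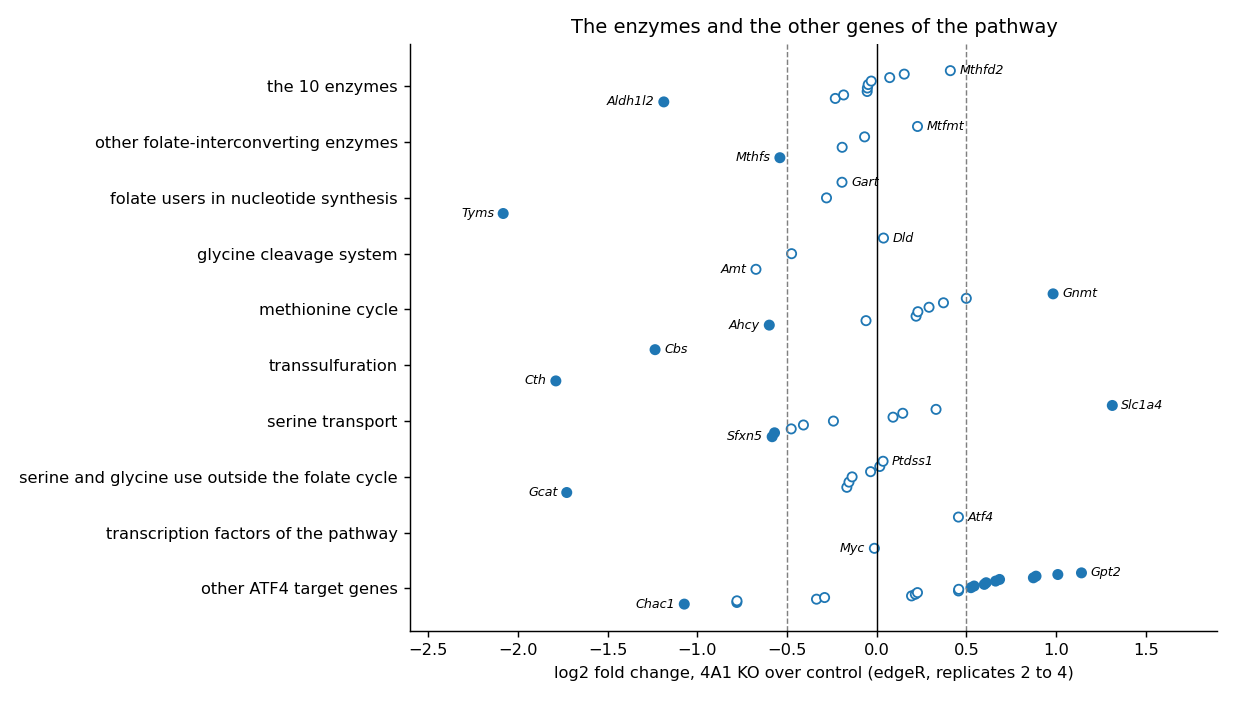
Log2 fold change (4A1 KO over control, edgeR, replicates 2 to 4) of the 10 enzymes and of the tested genes of each further group, 1 circle per gene, filled where the gene was called; the lowest and the highest of each group are named and dashed lines mark ±0.5. Of the 10 enzymes only Aldh1l2 is filled. In the further groups Tyms, Cth, Cbs, Gcat and Chac1 lie below -1, and Slc1a4, Gpt2 and Pycr1 lie above 1.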

How the data were processed

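Reads were trimmed and mapped to GRCm39, and the authors deposited raw read counts per gene, which Seqmonk had made over merged mRNA isoforms from stranded read pairs. The authors also deposited TPM, calculated with StringTie 2.1.1 from the HISAT2 2.1.0 alignments, per the submitters' processing notes. The treatment of multi-mapping reads is not given in the sources used here. Each library came from a mouse of its own, and groups, sex and batch were taken from the sample labels. All per-sample columns were used.

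The 10 enzymes and the further gene lists were chosen with earlier results of these data known. The count model was fitted with edgeR 4.0.16 under R 4.3.3 (filterByExpr, TMM, quasi-likelihood F test, batch, sex and genotype) and TPM with limma 3.58.1 on log2(TPM + 1) over genes averaging 1 TPM or more, which understates the change of low genes. Tests were two-sided and Benjamini-Hochberg adjusted over all genes tested, and a call needed an adjusted p below 0.05 and an absolute log2 fold change above 0.5. In the 6 libraries batch and sex together equal the replicate number as a block, and in all 8 they do not. The pairing follows from the labels, which give same-numbered libraries a shared batch and sex. The correlations of deviations were 0.489, 0.404 and 0.334 for same-numbered libraries and -0.337 to 0.0008 for the others. Deviations were taken from the mean of the same libraries, so higher values for same-numbered libraries entail lower ones for the others. These correlations cannot tell a pairing from the shared batch and sex. Named were the 10 enzymes, the called gene with the smallest adjusted p of each pathway list, Eif4a1, Atf4 and Myc. Other genes were named after their values were seen, where a count concerned 5 or fewer genes or where a gene overlaps or copies an enzyme or marks a cell type. 1 gene list is not reported here.

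Coordinates and starts came from GENCODE M39, to which 52647 of 53242 gene identifiers matched, and copies (at least 90% identity over 100 bases) from blastn 2.17.0. The code was tested on simulated data. Alternatives were DESeq2 1.42.0 with and without shrinkage, DESeq2 size factors, upper quartile normalisation, no filter on low counts or low TPM, a pseudocount of 0.1, no replicate block, all 8 libraries and leaving out each replicate.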

Additional observations from a re-analysis of the deposited data

Results flagged for a closer look

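The TPM of Shmt2 in control replicate 2 stood apart from the other controls. It was 696 TPM, against 818 to 833 TPM in the other 3 control libraries, and its gap was 0.888 of the range of the group, above Dixon's 95% critical value for 4 libraries. It was 1 of 46 groups of 4 libraries examined, of which chance alone would mark about 2.3. Without replicate 2 the log2 fold change of Shmt2 was 0.13 (adjusted p = 0.0967, edgeR), compared with 0.15 (adjusted p = 0.0156, edgeR) with it.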

How the results depend on the processing

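Of 244 recomputed values, 214 did not change by the rule used, which was the same direction and side of the threshold for a tested difference and a count within 1.5 times for a number of genes. The number of enzymes called, 1 with edgeR, was 0 with DESeq2 and 0 with DESeq2 and normal shrinkage, where Aldh1l2 was at -1.20 and -0.47 (adjusted p = 0.0828 in both). With DESeq2, 3 of 10 enzymes had an adjusted p below 0.05, against 43.2% of all genes. On TPM, 4 enzymes passed the adjusted p (50.7% of all genes), and 2 did with no filter on low TPM (17.6%) and 2 with no replicate block (34.2%). Leaving out 1 replicate gave 2 without replicate 2 (36.6% of all genes), 2 without replicate 3 (34.5%) and 3 without replicate 4 (44.3%). Psph and Shmt2 no longer passed without replicate 2 or replicate 3. On counts, 3 enzymes passed the adjusted p with no replicate block (35.8% of all genes) and 4 with it (53%). With the fold threshold added, 3000 of all genes were called with no replicate block and 3596 with it. The replicate block did not change which enzymes were called. It moved the adjusted p across 0.05 for Shmt2 (adjusted p = 0.154 without it, edgeR) and, on TPM, for Psph and Shmt2 (adjusted p = 0.132 and 0.179, limma), and for no other enzyme. Signs changed in enzymes that did not pass any threshold. Leaving out 1 replicate gave Phgdh values of -0.061 to 0.018 on counts and -0.085 to 0.0058 on TPM, positive without replicate 2, and Mthfd2l values of -0.22 to 0.044 on counts, positive without replicate 2 (0.044) and replicate 4 (0.029), and of -0.21 to 0.18 on TPM, negative without replicate 2. Mthfd2l was also at 0.13 on counts with all 8 libraries in both fits. The log2 difference in the ratio of Mthfd2 to Mthfd2l was -0.13 without replicate 3, and from -0.13 to 0.39 over the 4 fits that each left out 1 replicate. The cause of these changes was not tested. Few counts (10 to 72 per library) limit what Aldh1l2 and Mthfd2l can show.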
